A study of Homo sapiens with 8 samples.

Results

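Small nucleolar RNA host genes are genes whose introns carry small nucleolar RNAs (snoRNAs), the guide RNAs that direct chemical modification of ribosomal RNA. The 10 noncoding host genes described here are GAS5, SNHG1, SNHG5, SNHG6, SNHG7, SNHG8, SNHG12, ZFAS1, EPB41L4A-AS1 and LRRC75A-AS1 (also called SNHG29). They were chosen by name, not by measured values. All 10 had a row in the table of all reads, which held 27448 genes, and all 10 had a row in the table of converted reads, which held 6994 genes. For each gene the transcript row with the highest mean was used.

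After splicing, the introns of such a gene are trimmed to snoRNAs, while the joined exons leave the nucleus as an RNA without a long reading frame. Several of these spliced RNAs, GAS5 and SNHG1 among them, are known to be bound by ribosomes and destroyed by nonsense-mediated decay, the pathway that removes RNAs whose translation stops early. Their half-life is therefore tied to translation, and inhibitors of translation are known to raise them. Many host genes start, like the genes of ribosomal proteins, at a cytosine followed by a run of pyrimidines, the 5′ terminal oligopyrimidine (TOP) tract that links translation to growth signals.

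The RNA came from NALM6 cells, a cultured human B-cell precursor leukaemia line, and was measured by SLAM-seq. In this method cells take up 4-thiouridine, and RNA made during the labelling is recognised by T-to-C conversions in the reads. The induced mutant group had 2 libraries (A and B) of cells with doxycycline-inducible HMGN1 S20,24E, a mutant of this chromatin protein that lacks nucleosome binding, treated with doxycycline. The induced wild type group had 3 libraries (A, B and C) of cells with inducible wild-type HMGN1, treated with doxycycline. The vehicle group had 3 libraries (A, B and C) of the wild-type HMGN1 cells without doxycycline. Doxycycline was given at 100 ng/ml for 6 h, and every library, vehicle included, had 4-thiouridine at 100 µM for the last 5 h. No vehicle libraries of mutant cells were analysed here, so that the mutant protein, doxycycline and the cell line cannot be told apart in the mutant against vehicle, nor HMGN1 and doxycycline in the wild type against vehicle. The labels call the libraries biological replicates without naming separate cultures, so p-values measure the spread between these libraries.

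Induced wild type B was the shallowest library with 7.99 M (mega) reads, and vehicle C the deepest with 17.7 M. Gene rows held between 3.44 M and 7.86 M of a library's reads. HMGN1, the induced gene, had conversion rates of 4.64% and 2.0% in induced mutant, 4.09%, 3.24% and 7.12% in induced wild type, and 1.04%, 1.66% and 1.69% in vehicle, so that every induced library lay above every vehicle library. In converted reads it did not stand apart, at 4.15 and 2.62 FPKM in induced mutant, 7.75, 5.39 and 4.94 FPKM in induced wild type, and 2.64, 6.04 and 5.44 FPKM in vehicle. The precursor B-cell marker CD79B was at 257 to 402 CPM in all libraries, while CD3D, CD2 and HBB, markers of T cells and red cells, were at 0. The median conversion rate over 6300 genes with a mean of at least 10 CPM differed between libraries within every group. It was 6.54% and 5.19% in induced mutant, 6.42%, 5.17% and 7.04% in induced wild type, and 4.69%, 5.58% and 6.45% in vehicle.

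The start sites are shown because of the TOP tract, which 5 of the 9 windows found here held together with a TATA box. RefSeq promoter windows (GRCh38.p14) were found for 9 of the 10 genes. The table has 1 start per gene, which need not be the start of the transcript that was counted. Each line below gives 60 bases, 40 before the annotated start and 20 from it, 5′ to 3′ on the strand of the gene. Capitals mark a TATAA whose first base lies 40 to 20 bases before the start, and a run of a C followed by at least 4 pyrimidines (C or T) whose first C lies within 5 bases of the start. Both were searched on the strand of the gene only.
SNHG5, chr6:85678714-85678773, minus strand: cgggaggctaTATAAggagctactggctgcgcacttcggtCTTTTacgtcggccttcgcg
ZFAS1, chr20:49278602-49278661, plus strand: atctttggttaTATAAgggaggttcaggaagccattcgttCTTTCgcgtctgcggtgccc
SNHG8, chr4:118278722-118278781, plus strand: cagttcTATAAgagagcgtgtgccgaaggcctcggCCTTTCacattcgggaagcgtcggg
SNHG7, chr9:136728165-136728224, minus strand: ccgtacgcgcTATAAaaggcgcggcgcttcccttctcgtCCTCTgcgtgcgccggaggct
SNHG12, chr1:28581854-28581913, minus strand: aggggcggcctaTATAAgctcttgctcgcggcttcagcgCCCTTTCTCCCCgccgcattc
SNHG1, chr11:62855866-62855925, minus strand: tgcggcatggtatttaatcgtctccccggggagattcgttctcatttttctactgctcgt
LRRC75A-AS1, chr17:16438947-16439006, plus strand: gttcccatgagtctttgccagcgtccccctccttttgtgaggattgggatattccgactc
The first 5 of these windows hold both motifs, and those of SNHG1, LRRC75A-AS1, GAS5 and EPB41L4A-AS1 hold neither in these letters. Over all 35116 promoters of the table, 18.1% held the pyrimidine run, 3.91% held TATAA and 0.735% held both. Among 7541 promoters of genes with a mean of at least 10 CPM the share with both was 0.650%. Of 13 promoters of TOP translation factors, 8 held the pyrimidine run, 5 held TATAA and 5 (38.5%) held both. Of 58 promoters of protein-coding snoRNA host genes, 21 held the pyrimidine run, 6 held TATAA and 4 held both. Of 10 promoters of other noncoding snoRNA host genes, 6 held the run and 1 held both. The motifs did not sort the genes by label uptake: the 5 genes with both ran from 1.62% conversion (SNHG5) to 8.67% (SNHG7), and the other 4 from 1.16% (LRRC75A-AS1) to 6.60% (SNHG1). A match of letters is a description and was not tested as a binding or start site.

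All 10 host genes were expressed, and their levels in counts scaled to library depth (CPM, reads per mega-read) covered a wide range. LRRC75A-AS1, which hosts box C/D snoRNAs, was the most abundant, with 549 and 654 CPM in induced mutant, 750, 740 and 629 CPM in induced wild type, and 915, 767 and 687 CPM in vehicle. Both mutant libraries lay below all vehicle libraries, and mutant B lay within the range of induced wild type. SNHG5, also a box C/D host, had 140 and 199 CPM in induced mutant, 169, 161 and 132 CPM in induced wild type, and 200, 147 and 161 CPM in vehicle. ZFAS1, named for its place antisense to the start of ZNFX1, had 134 and 161 CPM in induced mutant, 148, 152 and 131 CPM in induced wild type, and 174, 149 and 150 CPM in vehicle. For both genes the groups overlapped, and vehicle A was the highest or close to the highest library. The other members ranged from 15.5 to 124 CPM per library, with SNHG12 and EPB41L4A-AS1 the lowest at means of 19.3 ± 2.66 and 20.2 ± 3.73 CPM (SD over 8 libraries). The reads behind these values ran from 126 (SNHG12, induced wild type B) to 12191 (LRRC75A-AS1, vehicle C), which sets the precision of each.

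**Figure D1:**
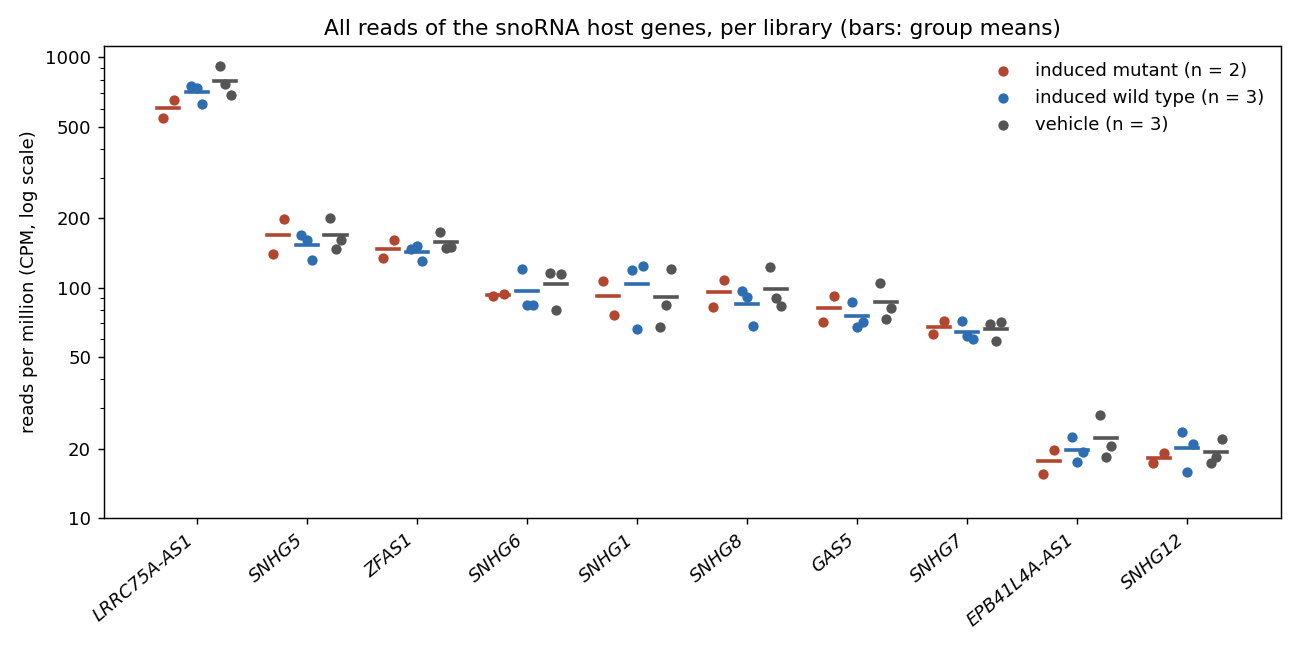
Depth-scaled reads (CPM, log axis) of the 10 host genes in every library, in induced mutant, induced wild type and vehicle from left to right for each gene, with bars at group means. LRRC75A-AS1 stands above all others at 549 to 915 CPM, and the 3 groups lie side by side for every gene.

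Levels can be compared between genes only per length, and the order of the 10 depended on the length used. Values are CPM per kilobase of the kept transcript, mean ± SD over 8 libraries. Per kilobase of exon, the order was as follows. LRRC75A-AS1 came first at 1239 ± 191, followed by SNHG5 at 380 ± 58.7. SNHG8 at 285 ± 51.7 and ZFAS1 at 251 ± 23.1 did not differ beyond their spread. Rows not kept had the same CPM with longer exons, up to 672 bases against 327 for SNHG8 and 1008 against 596 for ZFAS1. For LRRC75A-AS1 such rows reached 843 bases against 574. The order and gaps per kilobase of exon thus hold for the rows kept. SNHG6 at 154 ± 25.7 and GAS5 at 128 ± 20.6 were 1.01 times the larger SD apart, and SNHG7 (83.5 ± 7.18) and SNHG1 (64.4 ± 16.8) were 1.13 times apart. SNHG12 at 28.3 ± 3.89 and EPB41L4A-AS1 at 6.80 ± 1.26 closed the order. The reads were counted over the whole span of a transcript, introns included, and the rows of ZFAS1 and LRRC75A-AS1 span 10990 and 31632 bases with 596 and 574 bases of exon. Per kilobase of span, SNHG5 (99.1 ± 15.3) and SNHG8 (83.5 ± 15.2) were highest. SNHG6 (26 ± 4.33), SNHG1 (24.7 ± 6.46), LRRC75A-AS1 (22.5 ± 3.47), GAS5 (19.8 ± 3.19) and SNHG7 (18.7 ± 1.61) followed, with no neighbours beyond their spread. ZFAS1 (13.6 ± 1.26), SNHG12 (5.91 ± 0.812) and EPB41L4A-AS1 (5.38 ± 0.995) were lowest. The span can mislead too: a row of LRRC75A-AS1 that spans 2667 bases had 697 CPM, against 711 CPM over 31632 bases.

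The conversion rate, the share of T positions read as C, spread the 10 genes from percentile 5.08 to percentile 86.6 of all genes. Reads were counted over the span, introns included, so these rates do not tell spliced host RNA from intron RNA, snoRNAs among it. The median of the 10 was 3.61% (means over 8 libraries), against 5.92% over all 6300 genes, and 3 of the 10 lay above the median of all genes. SNHG7 and SNHG12 were the most converted. SNHG7, a host of box H/ACA snoRNAs, had 8.32% and 7.63% in induced mutant, 9.50%, 7.67% and 9.93% in induced wild type, and 7.23%, 9.10% and 9.96% in vehicle, a mean at percentile 86.6 of all genes. SNHG12, which hosts snoRNAs of both classes, stood at percentile 77.6, with 7.19% and 6.81% in induced mutant, 9.25%, 7.17% and 9.28% in induced wild type, and 7.14%, 6.89% and 9.50% in vehicle. SNHG1, a host of box C/D snoRNAs and a known decay target, stood at percentile 58.9, with 6.92% and 5.35% in induced mutant, 7.65%, 5.36% and 7.05% in induced wild type, and 6.08%, 6.74% and 7.68% in vehicle. In all 3 genes the groups overlapped, and each was above its library's median in every library.

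The middle of the range held EPB41L4A-AS1 (5.58% ± 0.747, percentile 45.4), GAS5 (3.71% ± 0.754, percentile 24.8), ZFAS1 (3.51% ± 0.764, percentile 22.8) and SNHG8 (3.34% ± 0.925, percentile 21.2), each as mean ± SD over 8 libraries. GAS5, the growth-arrest gene for which decay by translation is best known, had 4.15% and 3.06% in induced mutant, 4.26%, 2.94% and 4.65% in induced wild type, and 2.86%, 3.24% and 4.51% in vehicle. That was 56.9% to 69.9% of the median gene of the same library, so the GAS5 row was less converted than most genes in every library. SNHG8, a box H/ACA host, moved more between libraries, from 2.30% in vehicle A to 4.36% in vehicle C.

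The 3 least converted members were below 10 on the percentile scale of all genes. SNHG5 had 1.71% and 1.38% in induced mutant, 1.95%, 1.23% and 2.18% in induced wild type, and 1.26%, 1.29% and 1.94% in vehicle (percentile 7.51). LRRC75A-AS1 had 1.58% and 1.03% in induced mutant, 1.28%, 0.871% and 1.67% in induced wild type, and 0.609%, 0.961% and 1.33% in vehicle (percentile 5.08). Its rate depended on the row: the mean was 1.16% in the row used, and 0.993% (697 CPM) and 1.54% (248 CPM) in others. SNHG6, a box C/D host, had 1.32% and 1.03% in induced mutant, 0.947%, 1.35% and 1.30% in induced wild type, and 1.12%, 1.41% and 1.21% in vehicle (percentile 5.29). SNHG6 differed from the other members in its pattern over libraries. Its highest value was in vehicle B and its lowest in induced wild type A, a library where all genes together were high. In vehicle C against vehicle A, the conversion of SNHG6 was 1.08 times as high, while the other 9 members were 1.26 to 2.18 times as high.

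**Figure D2:**
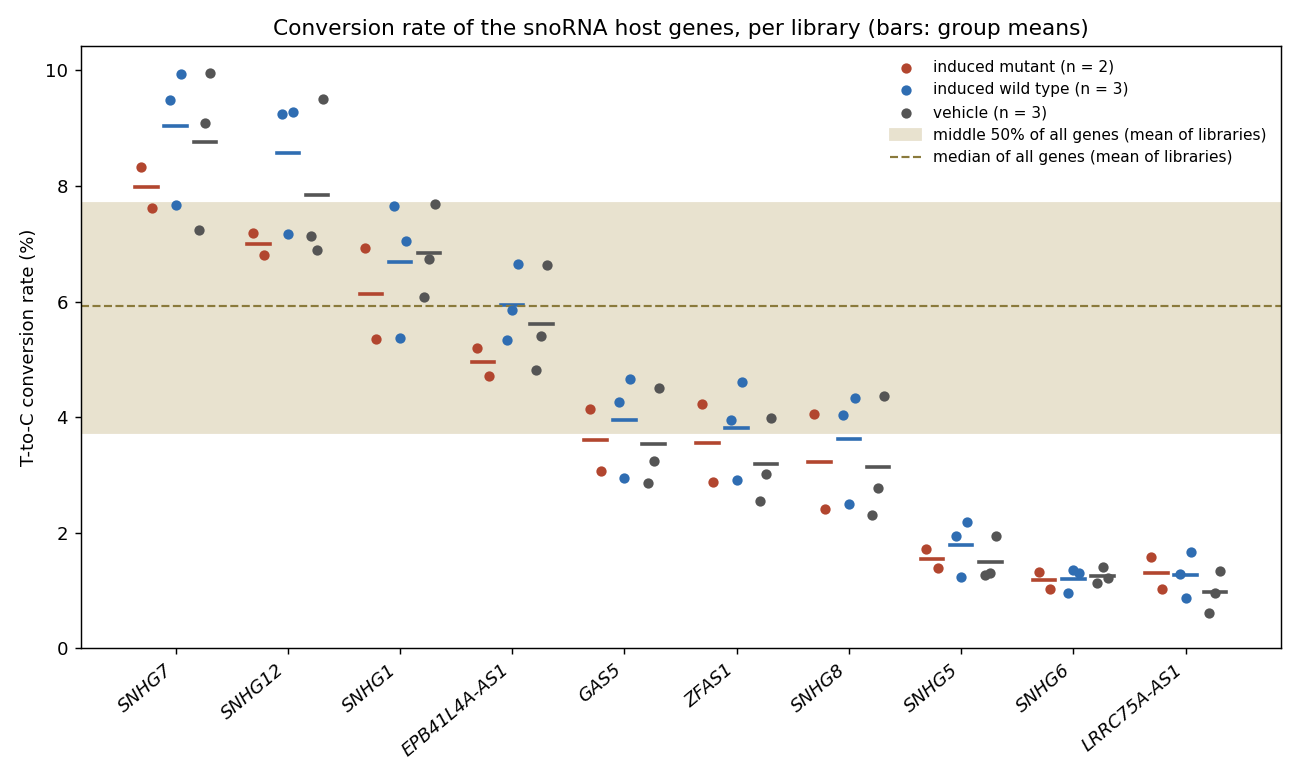
T-to-C conversion rate (%) of the 10 host genes in every library, in induced mutant, induced wild type and vehicle from left to right, with bars at group means, over the median (dashed, 5.92%) and the middle 50% (shaded) of all genes. SNHG7 and SNHG12 lie high. The means of 6 genes lie below the shaded range, which starts at 3.73%, GAS5, ZFAS1 and SNHG8 just under it and SNHG5, SNHG6 and LRRC75A-AS1 in every library, and groups overlap in nearly all genes.

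The same range was seen when the members were set among the other host genes of the list. Among 71 host genes with a mean of at least 10 CPM over all libraries, SNHG7 had rank 5 and LRRC75A-AS1 rank 63 by conversion rate in vehicle. The 4 most converted were SNHG17 (9.95% ± 1.09, SD, n = 3) and SNHG15 (9.94% ± 1.32), which are noncoding, and WDR43 (9.29% ± 1.76) and PPAN (9.17% ± 0.433), which code for ribosome assembly proteins. The 4 least converted were TPT1 (0.638% ± 0.204), RPS13 (0.713% ± 0.269), RPS12 (0.735% ± 0.208) and RPS3 (0.758% ± 0.227), a TOP gene and 3 ribosomal protein genes. LRRC75A-AS1 at 0.965% ± 0.358 lay among ribosomal protein genes, next to RPS20 at 1.01% ± 0.367 and RPL30 at 0.956% ± 0.264. Median conversion rates over libraries were 5.51% for 8 other noncoding host genes and 2.48% for 53 protein-coding host genes. For 16 TOP translation factors the median was 1.56%, with none of the 16 above the median of all genes. Of 8 genes with mRNAs known as targets of nonsense-mediated decay, 7 lay above that median, and their own median was 7.06%. They include SRSF2, SRSF3, SRSF6, SRSF7 and TRA2B. Their rows count reads over the span, so decayed and other forms of a gene's RNA were not told apart. GAS5 at 3.71% and SNHG1 at 6.60%, named above as decay targets, lay on both sides of the median of all genes. Of all 10 members 3 lay above it, and the other members were not sorted by decay. No test of turnover was made, as these libraries hold 1 labelling time.

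**Figure D3:**
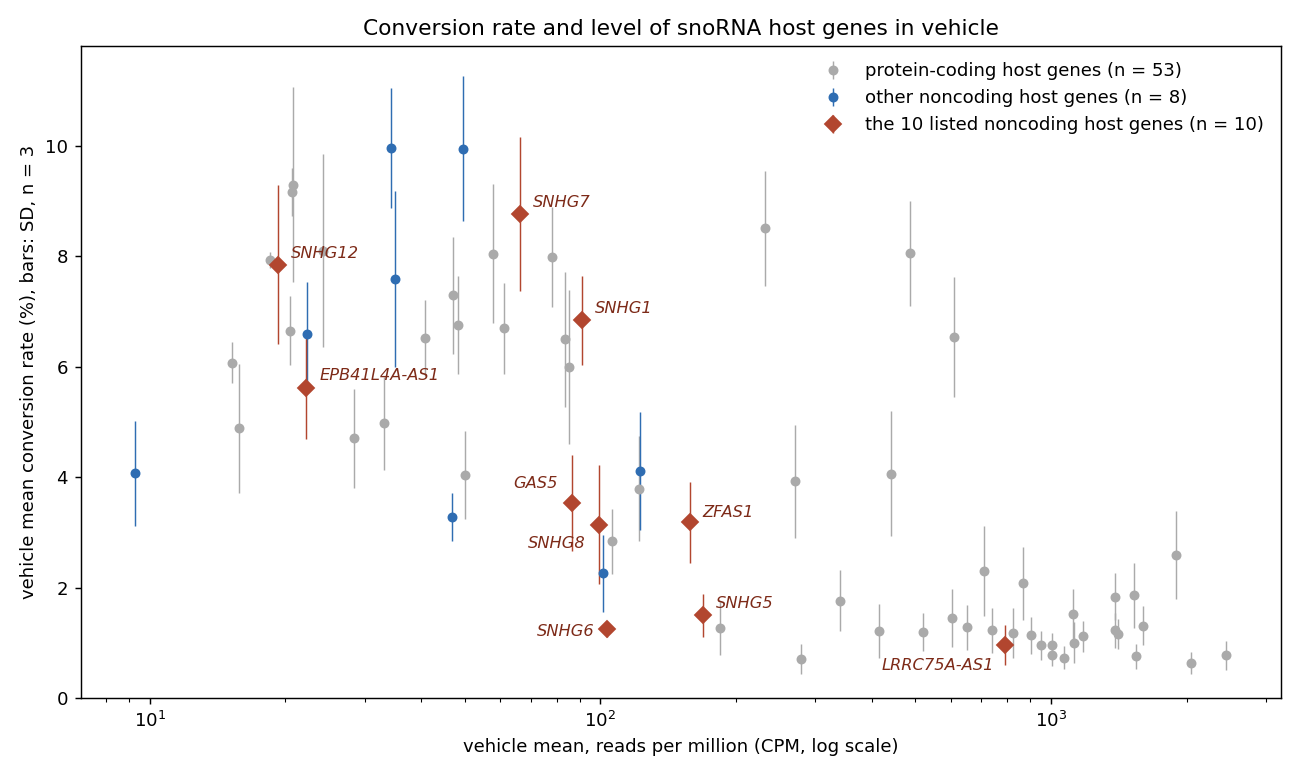
Conversion rate in vehicle (%, mean with SD, n = 3) against level in vehicle (CPM, log axis) of 71 snoRNA host genes. SNHG7, SNHG12 and SNHG1 lie with the highly converted host genes, and LRRC75A-AS1, at 790 CPM and 0.965%, lies with the abundant, little converted ribosomal protein genes.

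The first comparison asked whether RNA of the host genes changed when wild-type HMGN1 was induced. By limma on log2(CPM + 1), 0 of 10 members passed an adjusted p of 0.05 in induced wild type against vehicle, 0 reached an unadjusted p below 0.05, and edgeR and DESeq2 on the recovered reads also called 0. Over all 12478 genes tested the share called was 0%. The members' median log2 difference was −0.13, with 2 above 0 and 8 below, against a median of 0.09 over all genes. Groups that do not overlap were found for 0 of 10 members in all reads, against 2.51% of all genes in the higher and 1.52% in the lower direction. The smallest p was that of GAS5, which averaged 75 ± 10.5 CPM in induced wild type and 86.6 ± 16.4 CPM in vehicle (SD, n = 3 each), a log2 difference of −0.20 (95% interval −0.60 to 0.20, limma adjusted p = 0.993). SNHG1, the highest of the differences, had 120, 66.0 and 124 CPM in induced wild type, against 67.3, 84.6 and 121 CPM in vehicle. Its log2 difference of 0.17 had an interval of −0.46 to 0.80, so a rise of more than 1.5-fold was not excluded by its own spread. In bulk RNA, fewer cells expressing a gene and less RNA per cell cannot be told apart.

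In the conversion rate, 0 of 10 members were called in induced wild type against vehicle by limma (0 at an unadjusted p below 0.05), against 0% of 6300 genes. Again 0 members had groups apart, against 3.46% of genes higher and 0.111% lower. The lowest p was that of SNHG1, at 6.69% ± 1.19 in induced wild type and 6.83% ± 0.804 in vehicle. Relative to the library medians its log2 difference was −0.18 (interval −0.37 to 0.01, limma adjusted p = 0.965), and on the rates themselves the exact permutation p was 0.9. For new RNA, the product of CPM and conversion fraction, 0 of 10 members were called (0 at an unadjusted p below 0.05), against 0.0207% of 9669 genes. Relative to the library medians 9 of the 10 were below 0 with a median of −0.20, which was 0.06 when libraries were not centred on their medians.

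The deposited FPKM of converted reads had 9 of the 10 members above its minimum mean of 1. EPB41L4A-AS1 stayed below it, at 0 to 1.47 FPKM, and was not tested. LRRC75A-AS1 had the largest deposited values, at 126 and 138 FPKM in induced mutant, 148, 131 and 121 FPKM in induced wild type, and 139, 118 and 132 FPKM in vehicle, with overlapping groups. These values are not a ranking of genes, since their scaling by length is unclear. By limma 0 of 9 members were called in induced wild type against vehicle (0 at an unadjusted p below 0.05), against 0% of 5738 genes. The members' median was 0.01, against 0.23 over all genes. SNHG7 had 34, 34.1 and 23.6 FPKM in induced wild type, against 46.1, 34.6 and 34.7 FPKM in vehicle. SNHG8 had 28.7, 27.8 and 24.4 FPKM in induced wild type, against 35.6, 28.9 and 28.7 FPKM in vehicle. For these 2 of 9 members every induced wild type library lay below every vehicle library, by less than 0.1 FPKM at the nearest pair for SNHG8, and 1.25% of all genes were apart in that direction. The exact two-sided permutation p was 0.1 for both, the smallest possible for groups of 3 and 3 or of 2 and 3 libraries. Their log2 differences were −0.33 (interval −0.85 to 0.19) and −0.19 (−0.66 to 0.27), and in new RNA their groups overlapped. The groups were apart only in the transcript row used, 1 of 2 rows of SNHG7 and 1 of 3 of SNHG8. The other SNHG7 row, of the same exon length and span, had 9.99, 5.88 and 8.62 FPKM in induced wild type, against 6.82, 8.28 and 11.02 FPKM in vehicle.

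The second comparison set induced mutant against the same vehicle libraries. In all reads 0 of 10 members were called by limma (0 at an unadjusted p below 0.05, and 0 by edgeR or DESeq2), against 0.0321% of all genes. The members' median was −0.07, with 8 below 0, and that of all genes was −0.04. LRRC75A-AS1 had the smallest p, with a mean of 601 ± 74.5 CPM in induced mutant (n = 2) and 790 ± 116 CPM in vehicle (n = 3). Its log2 difference was −0.39 (SE 0.18, interval −0.79 to 0.02, limma p = 0.0591, adjusted p = 0.9999, exact permutation p = 0.2). It was the only member whose mutant libraries lay below all vehicle libraries in all reads, where 11.4% of all genes were apart in that direction, and 0 members were apart in the other, against 4.61%. The difference was −0.51 without mutant B and −0.26 without mutant A. EPB41L4A-AS1 had 15.5 and 19.7 CPM in induced mutant and 27.9, 18.4 and 20.5 CPM in vehicle, a log2 difference of −0.31 (interval −0.81 to 0.19), with overlap.

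In the conversion rate, 0 of 10 members were called in induced mutant against vehicle by limma, against 0% of all genes, and 1 reached an unadjusted p below 0.05, as did 8.46% of all genes, a share close to that of the members. That was SNHG1, at 6.13% ± 1.11 in induced mutant and 6.83% ± 0.804 in vehicle, with a log2 difference relative to the library medians of −0.22 (interval −0.43 to −0.01, limma unadjusted p = 0.0436 and adjusted p = 0.565), and on the rates themselves the exact permutation p was 0.5. Groups were apart for 0 members, against 3.78% of genes higher and 2.97% lower. LRRC75A-AS1 had the highest log2 difference in conversion, 0.24 (interval −0.08 to 0.56, limma adjusted p = 0.725), at 1.30% ± 0.390 in induced mutant and 0.965% ± 0.358 in vehicle. In new RNA 0 of 10 were called (0 at an unadjusted p below 0.05), against 0.0414% of all genes. EPB41L4A-AS1 had new RNA of 0.808 and 0.931 in induced mutant, against 1.35, 0.995 and 1.36 in vehicle. It was the member whose mutant libraries lay below all vehicle libraries, as 5.56% of all genes did, with a log2 difference of −0.51 (interval −1.19 to 0.17, limma adjusted p = 0.802).

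Converted reads also gave 0 of 9 calls in induced mutant against vehicle by limma (0 at an unadjusted p below 0.05), against 0.401% of all genes. ZFAS1 had 33.5 and 30.9 FPKM in induced mutant, against 26.7, 25.4 and 28.5 FPKM in vehicle. Both mutant libraries lay above all vehicle libraries, as they did for 20.4% of all genes (log2 difference 0.25, interval −0.26 to 0.77, exact permutation p = 0.1). That held in 1 of 4 transcript rows of ZFAS1. In the next highest row the groups overlapped, at 21.06 and 20.8 FPKM in induced mutant, against 21.45, 14.01 and 20.88 FPKM in vehicle. For SNHG7 the row not used had its mutant libraries, at 5.07 and 6.17 FPKM, below all vehicle libraries, while the row used overlapped. SNHG6 had 0.90 and 0.99 FPKM in induced mutant, against 1.04, 3.17 and 1.92 FPKM in vehicle, near the minimum of the test. Its mutant libraries lay below all vehicle libraries, as for 7.81% of all genes, and its log2 difference was −0.59 (interval −1.56 to 0.39). The comparisons of both induced groups use the same 3 vehicle libraries, so their values for a member are not independent.

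**Figure D4:**
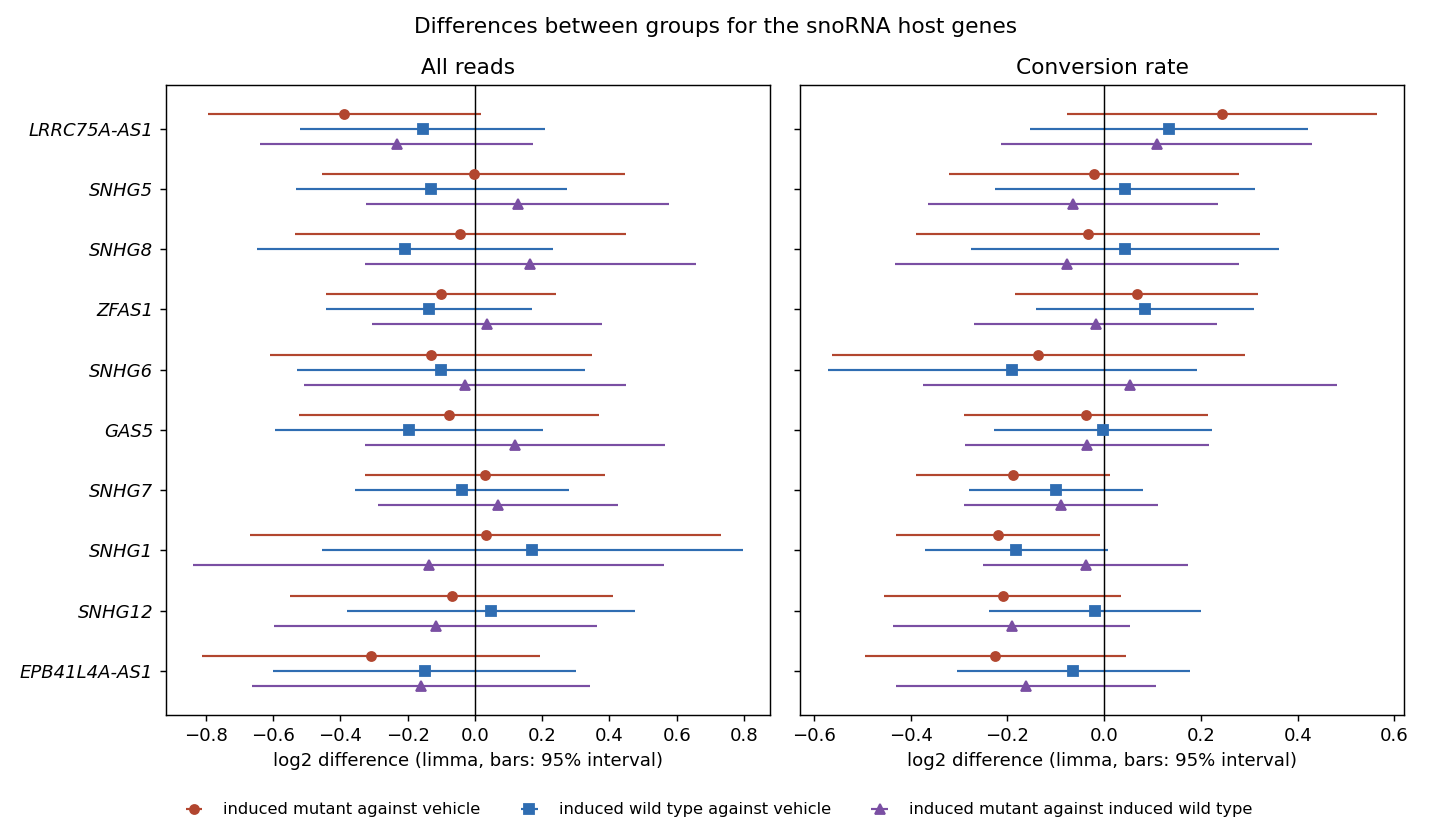
Log2 differences of the 10 host genes with 95% intervals from limma, in all reads (left) and in the conversion rate relative to the library medians (right), for induced mutant against vehicle, induced wild type against vehicle and induced mutant against induced wild type. The intervals reach across 0 for every gene and comparison except SNHG1 conversion in induced mutant against vehicle (−0.43 to −0.01), which did not pass adjustment.

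Between induced mutant and induced wild type, which differ in the HMGN1 allele and the line, no member was called by limma in any of the 4 measures, and none reached an unadjusted p below 0.05. The share of all genes called was 0.0321% in all reads and 0% in the conversion rate, in new RNA and in converted reads. The members' median log2 difference in all reads was 0.00, against −0.12 over all genes, and 0 members had groups apart, against 1.8% of genes higher and 13.2% lower. That holds for the rows used: of 3 LRRC75A-AS1 rows with their own values, 1 not used had both mutant libraries below all wild type libraries. EPB41L4A-AS1 had conversion rates of 5.20% and 4.72% in induced mutant, against 5.33%, 5.85% and 6.66% in induced wild type. Its mutant libraries were below all wild type libraries in conversion, as 6.87% of all genes were, and in new RNA, as 9.27% were (exact permutation p = 0.2 for both). In converted reads ZFAS1 had 33.5 and 30.9 FPKM in induced mutant, against 23.6, 27.3 and 30.8 FPKM in induced wild type. SNHG8 had 33.2 and 29 FPKM in induced mutant, against 28.7, 27.8 and 24.4 FPKM in induced wild type. Both genes lay higher in every mutant library, ZFAS1 by a narrow margin, where 5.18% of all genes were apart in that direction, and both had an exact permutation p of 0.2. Both were apart in 1 row only, of 4 rows of ZFAS1 and 3 of SNHG8.

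The level of SNHG1 followed the conversion level of the libraries, as did that of other genes. The 8 libraries fell into 4 with a median conversion of 4.69% to 5.58% (induced mutant B, induced wild type B, vehicle A and B) and 4 with 6.42% to 7.04% (induced mutant A, induced wild type A and C, vehicle C), so that no correlation is given. SNHG1 was at 75.9 CPM in mutant B, 66.0 CPM in wild type B, and 67.3 and 84.6 CPM in vehicle A and B. It was at 107 CPM in mutant A, 120 and 124 CPM in wild type A and C, and 121 CPM in vehicle C. Each set has too few libraries of a group to compare groups within it. The sets, drawn after values were seen, also differed in depth, with 7.99 M to 11.6 M reads at low conversion and 10.4 M to 17.7 M at high. SNHG1 was apart between the sets, the only member that was. Of all 6300 genes, 16.2% were apart with higher levels in the set of high conversion and 5.08% with lower levels. SNHG1 is thus not singled out among all genes. ZFAS1 went the other way, and its sets overlapped only at vehicle B (149.4 CPM) against vehicle C (150.3 CPM). It was at 161 CPM in mutant B, 152 CPM in wild type B, and 174 and 149 CPM in vehicle A and B. Its values in the other set were 134 CPM in mutant A, 148 and 131 CPM in wild type A and C, and 150 CPM in vehicle C. SNHG8, SNHG5 and ZFAS1 were highest in vehicle A (123, 200 and 174 CPM). They were lowest in wild type C (68.3, 132 and 131 CPM). These are the libraries with the lowest and the highest median conversion. The part of this library level in the group differences was not tested.

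**Figure D5:**
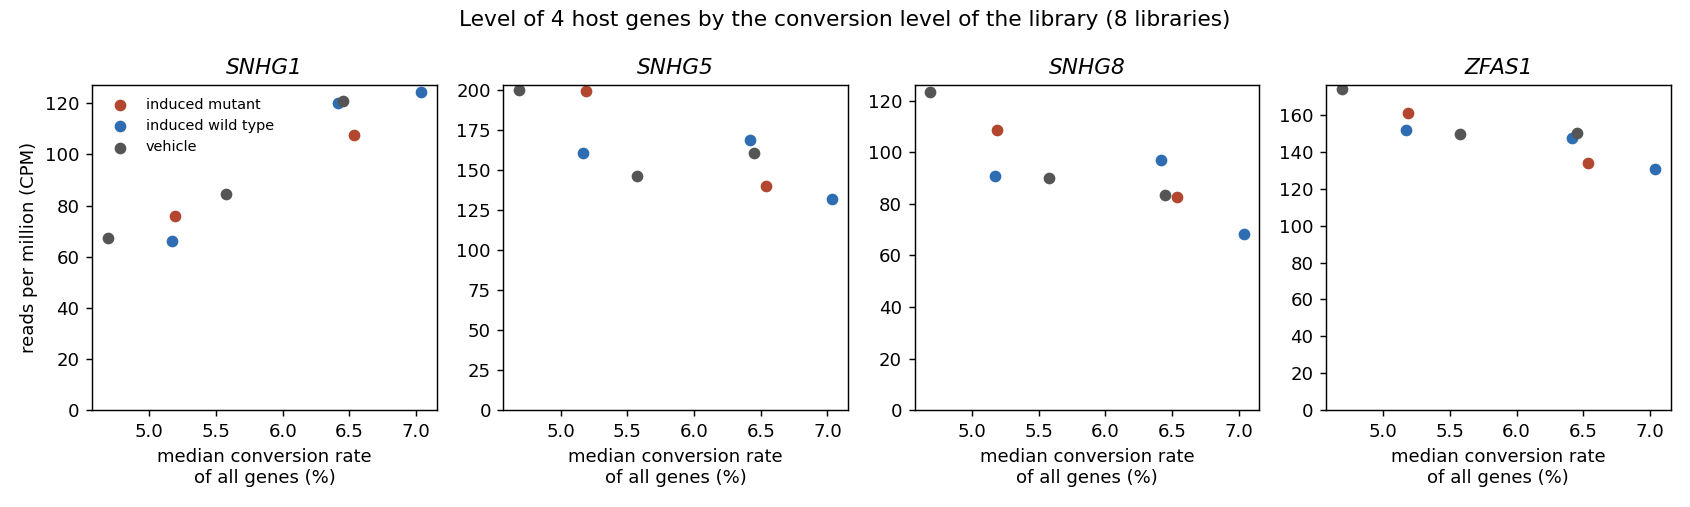
Level (CPM) of SNHG1, SNHG5, SNHG8 and ZFAS1 against the median conversion rate of all genes (%) in each of the 8 libraries, coloured by group. SNHG1 is at 66.0 to 84.6 CPM in the 4 libraries below 5.6% and at 107 to 124 CPM in the 4 others, while ZFAS1 and SNHG8 are highest in vehicle A, at 174 and 123 CPM.

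Across the 8 libraries the mean centred profile of the 10 members was most like those of ACAT1 (Pearson r 0.996), SUB1 (0.977), ANAPC16 (0.972), TIMMDC1 (0.971) and RTRAF (0.962), out of 6300 candidates with a mean of at least 10 CPM. Among the members themselves, GAS5 followed the mean of the other 9 most closely (r 0.88) and SNHG1 least (r −0.29). These values describe 8 libraries that share depth and label differences. ACAT1 and the others were picked as the highest of 6300 candidates, so the size of their correlations is no test of shared control.

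Rows of genes beside or antisense to the members were read with them, because the use of strand in counting is not given in the sources used here. Reads of a gene and of its antisense partner cannot be told apart in these tables. GAS5-AS1, which lies antisense beside GAS5, had 9.42 to 21.9 CPM and a conversion of 0% in 7 of 8 libraries. EPB41L4A had 16.2 and 20.2 CPM in induced mutant, 21.8, 20.2 and 20.3 CPM in induced wild type, and 26.3, 17.6 and 19.8 CPM in vehicle. These levels stayed close to those of EPB41L4A-AS1 in every library, with conversion rates of 0.0217% to 0.216% against 4.72% to 6.66% for EPB41L4A-AS1. LRRC75A had 9.67 to 24.6 CPM at 0.0822% to 0.448% conversion. Rates under 0.5% were rare, in 163 of 6300 genes (2.59%). Neighbours with a label like other genes were SLC3A2 beside SNHG1 (mean 91.9 CPM, 9.01%), ZNFX1 beside ZFAS1 (15.2 CPM, 9.97%) and TRNAU1AP beside SNHG12 (19.9 CPM, 5.99%). PRSS12 (1.26 CPM), ZBTB37 (0.720 CPM) and TCF24 (0.0181 CPM) were near or below the minimum for a test.

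Genes that act on the host RNAs gave no call either. Among 18 snoRNP proteins and assembly factors, 0 were called in all reads by limma in induced wild type or induced mutant against vehicle, and the same held for 18 decay factors. Of the 18 snoRNP genes, 10 lay above 0 and 8 below in induced mutant (median 0.007). In induced wild type 9 lay above 0 and 9 below (median −0.01). NHP2 and PIH1D1 were among those below 0. NHP2, a core protein of box H/ACA particles, had a log2 difference of −0.31 (SE 0.30) in induced mutant and −0.33 (SE 0.27) in induced wild type. PIH1D1, an assembly factor, had −0.43 (SE 0.19) in induced mutant and −0.24 (SE 0.17) in induced wild type. DCP2, the decapping enzyme, had −0.49 (SE 0.24) in induced mutant, and SMG6, the endonuclease of the decay pathway, had 0.42 (SE 0.24) in induced wild type. Each of these had an adjusted p above 0.99. The 16 TOP translation factors had 0 calls, and all 16 had log2 differences below 0 in both comparisons, with medians of −0.38 in induced mutant and −0.20 in induced wild type, against −0.04 and 0.09 over all genes. Both comparisons use the same vehicle libraries. In the conversion rate 15 of the 16 were above 0 in induced mutant and 12 in induced wild type, with medians of 0.13 and 0.04. NAP1L1, a histone chaperone on that list, had 248 and 341 CPM in induced mutant, against 481, 417 and 420 CPM in vehicle (log2 difference −0.59, limma adjusted p = 0.824). Of 14 other noncoding host genes tested 0 were called. MEG8, an imprinted gene, had log2 differences of −0.91 (SE 0.59) in induced mutant and −1.22 (SE 0.53) in induced wild type, with limma adjusted p above 0.99. The list also held noncoding RNAs that are not known to host snoRNAs, among them MALAT1, a nuclear RNA, for which 0 calls were made as well. MALAT1 was at 163 and 285 CPM in induced mutant, 143, 208 and 139 CPM in induced wild type, and 54.1, 55.7 and 121 CPM in vehicle. Every induced library lay above every vehicle library, with log2 differences of 1.58 (limma adjusted p = 0.473) in induced mutant and 1.16 (adjusted p = 0.993) in induced wild type. Of all genes, 4.61% were apart in that direction in induced mutant and 2.51% in induced wild type.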

How the data were processed

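The 8 SLAM-seq libraries were grouped, and their replicate letters taken, by the labels. They were made from 4 µg RNA with a kit that keeps strand, per the labels' protocols. The submitters' processing notes name hg19 (GRCh37) as the build. The sources used here do not state how reads were aligned, how conversions were called or whether counting used strand.

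The deposited all-read values, named CPM per the file headers, are a signal per RefSeq transcript. In each library 100.0% of these values were whole multiples of a single step within 0.1 read, which gave the reads and the depth. Of transcripts with a mean of at least 20 CPM, 47 pairs shared their span while their exon lengths differed by over 300 bases, and all 47 had the same values, so reads were taken as counted over the span. The deposited conversion values, named CONVERSION per the file headers, are a fraction. In rows with 1 read their median denominator was 12, as for T bases and not reads. The converted-read values were deposited by the authors as FPKM. They showed no clear division by transcript length and were used as deposited. Rows of SNHG7 with the same exon length and span had 5.07 and 24.02 in induced mutant A. Their size thus does not rank genes. Coverage of T bases is not given in the files, so conversion rates have no counting interval.

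Names came from the RefSeq gene table of GRCh38.p14 by accession, since the all-read table gives ZFAS1, EPB41L4A-AS1 and LRRC75A-AS1 under older symbols, and otherwise from the files. Exon lengths came from GENCODE transcripts joined by accession. Per gene the row with the highest mean was kept, and the first listed where means were equal. limma 3.58.1 (R 4.3.3, eBayes with trend) was fitted over all genes and all 8 libraries, on log2(CPM + 1) and log2(FPKM + 1) at a mean of at least 1, on log2(new RNA + 0.1) at a mean of at least 0.2, and on log2(conversion in percent + 0.5) at a mean of at least 10 CPM. New RNA and conversion were centred on library medians. Log2 differences of low genes are understated by the added constant. Benjamini-Hochberg adjustment ran over all genes tested, with calls at 0.05. Members were also compared with exact two-sided permutation tests on the values before logs and centring, with p unadjusted. The fits were tested on simulated data. Alternatives used edgeR 4.0.16 and DESeq2 1.42.0 on the recovered reads, other constants, filters, scalings, transcript rows and the replicate letter as a block, and left out each library in turn.

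Named genes were the members, HMGN1, up to 2 genes per list and direction with the smallest p, the genes beside the members, the 5 genes with the most similar profile, and the 4 most and 4 least converted host genes in vehicle. TUG1, DLEU2, MIR17HG, NEAT1 and MALAT1, listed among noncoding host genes, are not known to host snoRNAs and were left out of host gene counts after their values were seen. CD79B, CD3D, CD2, HBB, RPS20 and RPL30 were named after their values were seen, as were the sets of libraries by conversion level. The members and lists were chosen with earlier results of these data known. Figures were drawn with matplotlib 3.10.9.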

Additional observations from a re-analysis of the deposited data

How the results depend on the processing

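Under all 210 combinations of an alternative with a measure and comparison, 0 members were called. Whether the replicate letters pair the libraries was not settled. In all reads the correlations of deviations between libraries of the same letter ran from −0.64 to 0.65. With 2 mutant libraries the deviations of mutant A and B mirror each other, so theirs cannot decide it. Between induced wild type and vehicle they were 0.29 (A), −0.36 (B) and 0.65 (C), too few to decide. With the letter as a replicate block, 0 members were called, and over all genes the calls for induced mutant against vehicle in converted reads were 149, against 23 without the block. Counts over all genes were unstable: for induced mutant against vehicle they ran from 0 (without vehicle B) to 75 (DESeq2) around 4 in all reads, from 0 (filter at a mean of 1) to 80 (no filter) around 4 in new RNA, and from 0 (no variance trend) to 149 around 23 in converted reads. For induced mutant against induced wild type they ran from 0 to 13 (DESeq2) around 4 in all reads, 0 to 2 around 0 in new RNA, 0 to 3 around 0 in converted reads and 0 to 1 around 0 in conversion. For induced wild type against vehicle they ran from 0 to 2 around 0 in all reads and in conversion, 1 to 10 around 2 in new RNA and 0 to 1 around 0 in converted reads. The members' median log2 difference in all reads stayed below 0 in induced wild type against vehicle under the 20 alternatives (−0.28 to −0.02). In induced mutant against vehicle it ran from −0.23 (without mutant B) to 0.01 (without mutant A). Scaling moved medians in all comparisons. For induced wild type against vehicle, conversion went to 0.13 and new RNA to 0.06 without centring, and converted reads to −0.33 with it. For induced mutant against vehicle converted reads went to −0.26 with centring. For induced mutant against induced wild type new RNA went to −0.08, against 0.11 with centring, and all reads to 0.14 with it. Since 0 members were called, sign changes in 217 of 2046 alternatives say nothing of calls. The depth of induced wild type B, with 126 reads for SNHG12, limits the least abundant members most.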
